A study of Homo sapiens with 6 samples.

Results

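The genes described here encode intermediate filament proteins that are not keratins. They comprised 10 genes chosen by name, of 56505 rows in the count table: VIM (vimentin), NES (nestin), SYNM (synemin), the neurofilament genes NEFL, NEFM and NEFH, INA (alpha-internexin), and the lamin genes LMNA, LMNB1 and LMNB2. RNA was sequenced in 6 libraries whose labels name MDA-MB-468, an established human line derived from a basal-like, triple-negative breast carcinoma. In 3 libraries the cells carried a short hairpin RNA against cytokeratin 5, the protein encoded by KRT5 (pLK0-shCK5-425222 in the labels, shCK5-22 in the sample titles, here shCK5). In the other 3 they carried a control hairpin (pLK0-shControl, here shControl). Cells of both groups were grown with fetal bovine serum and had no further treatment. The submitters state that CK5 protein, or its loss, had been checked in the cells. The only CK5 hairpin here has no sequence in the sources used, and whether the cells were a clone or a pool is not given.

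Intermediate filaments are rope-like polymers that give cells and nuclei mechanical strength. Keratins form them in epithelial cells, and vimentin forms them in mesenchymal cells, in many cultured cells and in carcinoma cells that have lost epithelial traits. Nestin and synemin do not form filaments by themselves and join those of vimentin, neurofilament proteins and alpha-internexin fill axons, and lamins line the inner nuclear membrane.

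Total counts lay between 75460940 and 83594772 in the libraries labelled shCK5 and between 68810882 and 75529699 in the shControl libraries. Levels are in CPM, counts scaled to the TMM-adjusted size of each library, and means carry the SD over 3 libraries per group. KRT5 itself was measured at 16.42 ± 0.845 CPM in shCK5 libraries and 2044.3 ± 23.3 CPM in shControl libraries, which is -6.96 on the log2 scale with an SE of 0.0369 (edgeR adjusted p = 1.15e-34). The labelled cell line was not borne out by every gene. RB1 and SMAD4, both deleted in MDA-MB-468, were both present in the libraries labelled shCK5. RB1 averaged 101 ± 2.16 CPM there and 1.996 ± 0.136 CPM in shControl, and SMAD4 averaged 16.86 ± 0.547 CPM there and 0.2346 ± 0.138 CPM in shControl. In what follows, shCK5 means the libraries that carry this label, every difference is one between libraries so labelled, and an effect of the hairpin and a difference between the cells cannot be told apart. The 8 epithelial markers checked (EPCAM, CDH1, KRT7, KRT8, KRT18, KRT19, ESRP1 and GRHL2) had counts in every group, with summed levels of 1843.4 to 1884.3 CPM in shCK5 and 6217.9 to 6367.8 CPM in shControl libraries, and all 8 were lower in shCK5. In bulk RNA, fewer cells of a type and less RNA per cell cannot be told apart.

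Of the 10 genes, 8 had enough counts to be tested, and all 8 differed between the groups. VIM, NES, SYNM, LMNA and LMNB2 rose in the libraries labelled shCK5, whereas NEFH, INA and LMNB1 fell. A gene was called at an adjusted p below 0.05 (edgeR quasi-likelihood F test, Benjamini-Hochberg over 19567 tested genes). Such calls were common: 82.7% of all tested genes passed, 40.9% higher and 41.7% lower, so the count of 8 of 8 is not read as particular to these genes. Past 2-fold were 4 higher members (VIM, NES, SYNM and LMNB2) and 2 lower members (NEFH and INA), against 19.6% and 24.4% of all tested genes, or 44% in either direction. SYNM lay close to that limit: its log2 fold change of 1.03 was 0.89 with library size alone and 0.99 without shControl replicate 3, which leaves 3 higher members. The median absolute log2 fold change was 2.64 for the 8 tested members and 0.85 for all tested genes. Because the members were chosen with earlier results of these data known, this contrast is not read as particular to them. Values of the groups did not overlap for any of the 8, as for 84.2% of all tested genes.

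**Figure D1:**
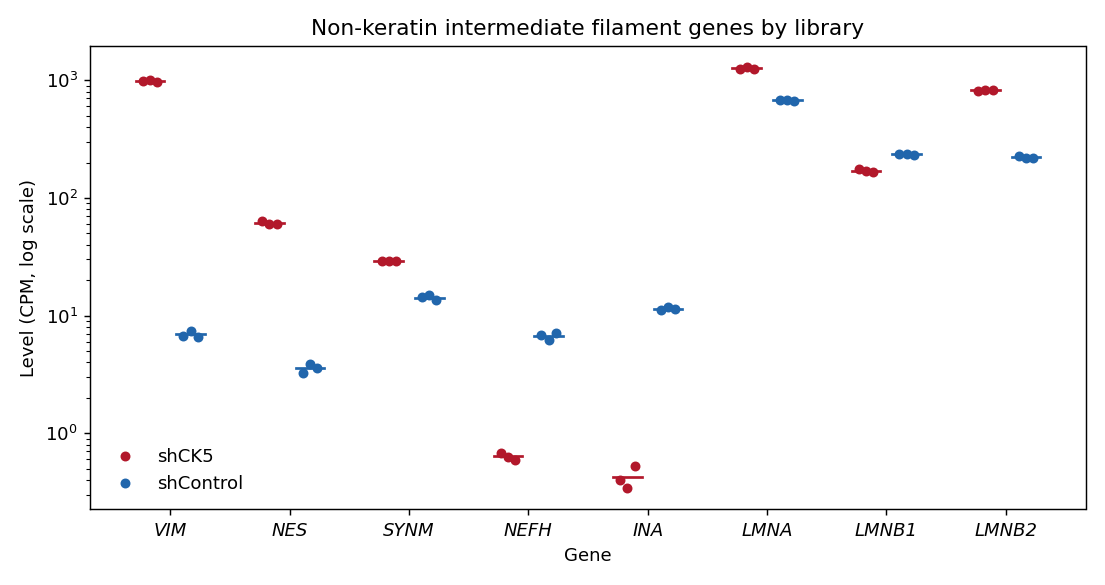
Levels of the 8 tested genes in each library, in CPM on a log axis, with a point per library and a bar at the mean of 3 libraries (shCK5 left and red, shControl right and blue). The groups lie apart for every gene; the gap is widest for VIM, at 987.2 CPM in shCK5 and 6.911 CPM in shControl on average. NEFL and NEFM, with means below 0.01 CPM, are not drawn.

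VIM showed the largest difference of the family. This gene (ENSG00000026025.15, protein-coding, chromosome 10, 17228259 to 17237593, plus strand, GRCh38) had 987.2, 1000.1 and 974.2 CPM in shCK5 replicates 1, 2 and 3, against 6.765, 7.447 and 6.522 CPM in shControl replicates 1, 2 and 3. All 3 shCK5 libraries lay within a narrow band far above the shControl libraries. The log2 fold change was 7.16 (SE 0.04, edgeR adjusted p = 2.68e-34), 143-fold, and 303 of the tested genes had a larger one. The coefficient of variation between libraries was 1.31% in shCK5 and 6.94% in shControl. Counting error alone gives 4.38% in shControl if each count is a separate fragment. Divided by transcript length, the VIM level ranked 72nd of 13646 genes in shCK5 and 8279th in shControl libraries. Vimentin RNA was thus scarce but measured in every shControl library, with 1566 counts in all.

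VIM-AS1, a noncoding gene on the opposite strand that shares 641 exonic bases with VIM in the annotation, moved the same way. It had 28.83, 28.96 and 27.62 CPM in shCK5 libraries, against 1.074, 0.9779 and 1.477 CPM in shControl libraries (log2 fold change 4.60, SE 0.0918, edgeR adjusted p = 5.62e-24). No source states whether counting used strand, so reads of VIM and VIM-AS1 cannot be told apart where the genes overlap. The processed pseudogene VIM2P held 4 counts in shCK5 and none in shControl libraries. VIM, SYNM and NEFH also share exonic bases with antisense genes that were not analysed here. VIM shares 619 with AL133415.1, SYNM 137 with AC036108.1 and 2027 with AC036108.2, and NEFH 333 with AC000035.1. The pseudogenes NEFLP1, NEFMP1 and NEFHP1 had no count.

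Nestin and synemin RNA were also higher in shCK5. NES (ENSG00000132688.10, chromosome 1, 156668763 to 156677397, minus strand) encodes a filament protein of neural and other progenitor cells. It had 63.35, 59.84 and 60.38 CPM in shCK5 libraries, against 3.248, 3.886 and 3.567 CPM in shControl libraries. The lowest shCK5 library was far above the highest shControl library (log2 fold change 4.10, SE 0.0578, edgeR adjusted p = 4.54e-27). SYNM (ENSG00000182253.14, chromosome 15, 99098217 to 99135593, plus strand) encodes a large protein that ties vimentin and desmin filaments to adhesion sites. It had 28.94, 28.94 and 29.13 CPM in shCK5 libraries, against 14.32, 14.89 and 13.49 CPM in shControl libraries. The SYNM groups did not overlap, but the step was about 2.04-fold (log2 fold change 1.03, SE 0.0509, edgeR adjusted p = 1.23e-15). Unlike VIM and NES, SYNM was therefore expressed at a comparable order of magnitude in shControl libraries.

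**Figure D2:**
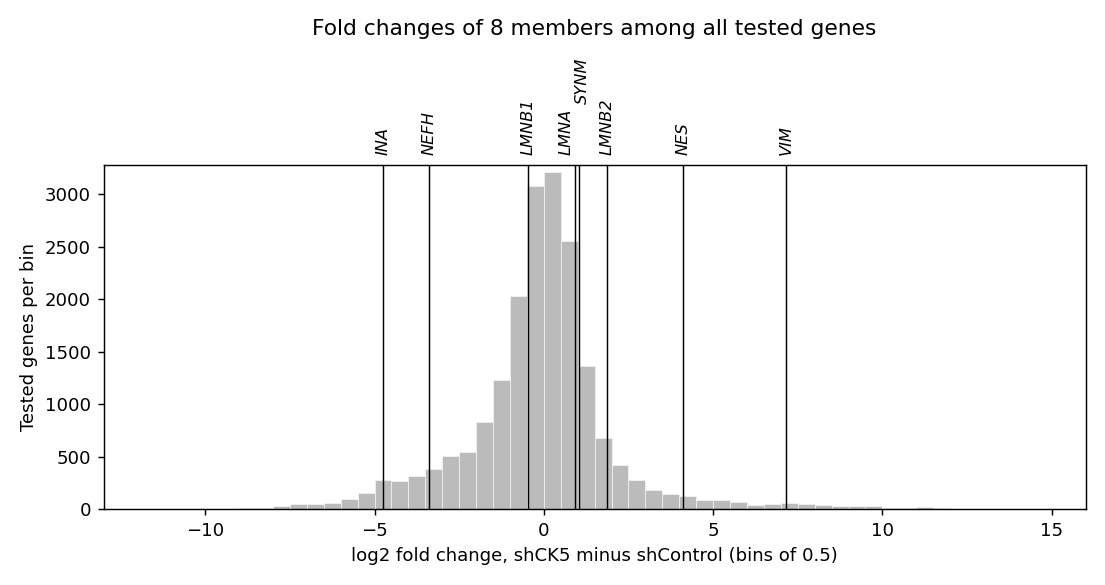
Log2 fold changes (shCK5 minus shControl) of all 19567 tested genes as a histogram with bins of 0.5, with a line at the value of each of the 8 tested members. VIM and NES lie in the upper tail, INA and NEFH in the lower tail, and LMNA, LMNB1 and SYNM near the bulk of all genes.

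Sequence windows before the gene start of the members with the largest rises, VIM and NES, and the largest fall, INA, differed in base composition. VIM has 10 annotated transcripts, and any start further downstream was not searched. The windows are the 250 bases before the gene start of RefSeq (GRCh38.p14), written 5′ to 3′ on the gene's strand, with motif matches in capitals.
VIM (chr10:17227991-17228240, plus strand): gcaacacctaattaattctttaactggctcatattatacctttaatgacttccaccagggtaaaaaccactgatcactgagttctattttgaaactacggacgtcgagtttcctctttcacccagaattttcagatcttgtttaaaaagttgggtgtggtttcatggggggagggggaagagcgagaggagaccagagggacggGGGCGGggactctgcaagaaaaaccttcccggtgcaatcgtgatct
NES (chr1:156677408-156677657, minus strand): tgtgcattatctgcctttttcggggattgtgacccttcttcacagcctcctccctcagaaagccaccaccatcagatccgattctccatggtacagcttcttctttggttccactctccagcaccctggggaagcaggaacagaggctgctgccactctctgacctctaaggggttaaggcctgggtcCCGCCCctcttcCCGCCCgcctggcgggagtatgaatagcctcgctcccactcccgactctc
INA (chr10:103276888-103277137, plus strand): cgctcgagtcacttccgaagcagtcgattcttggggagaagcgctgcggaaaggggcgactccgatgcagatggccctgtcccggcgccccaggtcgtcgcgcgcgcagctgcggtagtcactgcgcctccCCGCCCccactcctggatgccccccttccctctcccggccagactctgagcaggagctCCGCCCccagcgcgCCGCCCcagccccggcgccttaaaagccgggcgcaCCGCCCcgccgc
The capitals mark the GC box (GGGCGG, or CCGCCC where it lies on the other strand, the site of SP factors), the only one of 6 searched motifs found in these windows, on either strand and without overlap. VIM had a single GC box, which began 46 bases before the start, NES had 2 and INA had 4. The window was 46% G and C in VIM, 58% in NES and 72.8% in INA. In the same search, 42.6% of 35116 promoter windows held a GC box. The other motifs were AP-1 (TGANTCA), the E2-box of ZEB and SNAIL factors (CAGGTG), the CCAAT box (CCAAT), the TATA box (TATAAA) and a STAT motif (TTCNNNGAA), present in 6.57%, 17.5%, 32%, 10.7% and 6.57% of all windows. The tally for the family covered 10 windows of 7 of the 10 genes and did not cover NEFL, NEFM and NEFH. Of these 10 windows, 9 held a GC box, 3 a CCAAT box, 2 a STAT motif and none an AP-1 or TATA motif. An E2-box lay in 2 of them (in SYNM and in a downstream start of LMNA). A match describes the letters of the window and not a bound site.

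Neuronal filament genes were lower or hardly counted. INA (ENSG00000148798.10, chromosome 10, 103277163 to 103290351, plus strand), whose product forms filaments with the neurofilament proteins, had 0.4031, 0.341 and 0.5254 CPM in shCK5 libraries, against 11.11, 11.73 and 11.37 CPM in shControl libraries. All shCK5 values were far below all shControl values (log2 fold change -4.75, SE 0.129, edgeR adjusted p = 3.41e-21), 27-fold lower in shCK5. NEFH (ENSG00000100285.9, chromosome 22, 29480230 to 29491390, plus strand), which encodes the heavy neurofilament subunit, had 0.6802, 0.6295 and 0.5945 CPM in shCK5 libraries, against 6.846, 6.168 and 7.121 CPM in shControl libraries. The groups again did not overlap (log2 fold change -3.40, SE 0.136, edgeR adjusted p = 1.29e-17), and NEFH was 10.5-fold lower in shCK5. The shCK5 values rest on 96 counts of INA and 145 counts of NEFH over 3 libraries. The INA values in shCK5 spread by 22.2%, and counting error alone gives 17.7% if each count is a separate fragment.

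NEFL and NEFM, which encode the light and medium subunits, lie side by side on chromosome 8. NEFL had no count in any library, and NEFM had 2 counts, all in shCK5 replicate 1. Over a group, 3 counts correspond to 0.01316 CPM in shCK5 and 0.01327 CPM in shControl, so neither gene was above that limit and no fold is given. A row at 0 is not read as lack of transcript, because FNTB, a subunit of an enzyme that every cell uses, was at 0 in all 6 libraries too. Floors cover counting error only. Neuronal markers gave no common direction beside INA and NEFH. The summed level of 10 such markers was 4.195 to 4.632 CPM in shCK5 and 15.32 to 17.32 CPM in shControl libraries. Of these 10, 4 were tested, with 2 higher (SYP and SYT1) and 2 lower (MAP2 and ELAVL3), and SNAP25 had no count in any library. MAP2 carried the difference in the sum, with 0.8945 CPM in shCK5 and 14.73 CPM in shControl libraries, whereas SYP had 2.062 CPM in shCK5 and 0.8996 CPM in shControl libraries. The part of such markers in the result was not tested.

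The lamins shifted within the B type. LMNA (ENSG00000160789.19, chromosome 1, 156082573 to 156140089, plus strand), which encodes lamins A and C from alternative transcripts not separated here, had 1259, 1296.9 and 1249 CPM in shCK5 libraries, against 682.2, 676.1 and 671.7 CPM in shControl libraries. Each shCK5 library was above each shControl library (log2 fold change 0.91, SE 0.025, edgeR adjusted p = 4.91e-21), a 1.87-fold difference. LMNB2 (ENSG00000176619.12, chromosome 19, 2427638 to 2456996, minus strand), a B-type lamin gene, had 811.6, 826.2 and 820.3 CPM in shCK5 libraries, against 228.8, 220.2 and 218.9 CPM in shControl libraries. LMNB2 was 3.68-fold higher in shCK5, with no overlap (log2 fold change 1.88, SE 0.0265, edgeR adjusted p = 4.60e-27). LMNB1 (ENSG00000113368.11, chromosome 5, 126776623 to 126837020, plus strand), the other B-type lamin gene, had 176.7, 168.5 and 165.4 CPM in shCK5 libraries, against 235.6, 235.8 and 231.7 CPM in shControl libraries. It was 1.38-fold lower in shCK5, again without overlap (log2 fold change -0.46, SE 0.0285, edgeR adjusted p = 1.14e-13). TIMM13, a mitochondrial import gene that shares 257 exonic bases with LMNB2 on the same strand, had 77.22 ± 2.35 CPM in shCK5 and 50.57 ± 1.26 CPM in shControl libraries.

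With the opposite moves of the B-type genes, LMNB1 over LMNB2 was lower in shCK5. Per kilobase of transcript, LMNB1 over LMNB2 was 0.3534, 0.3311 and 0.3272 in shCK5 libraries, against 1.671, 1.738 and 1.718 in shControl libraries, a log2 difference of -2.34. The groups did not overlap, and the two-sided exact permutation p was 0.1, the smallest that 3 against 3 libraries allow. It stayed at 0.1 after adjustment over the 5 ratios computed, of which each had this p. LMNA over the sum of both B-type genes was 1.695 ± 0.0276 in shCK5 and 1.643 ± 0.00934 in shControl libraries, a log2 difference of 0.04. No direction is read from this ratio: the difference was 0 with the union of all annotated exons as length and -0.21 with no length. The lamins as a set had 632.2 ± 8.88 CPM per kilobase in shCK5 and 341.2 ± 3.38 CPM per kilobase in shControl libraries.

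**Figure D3:**
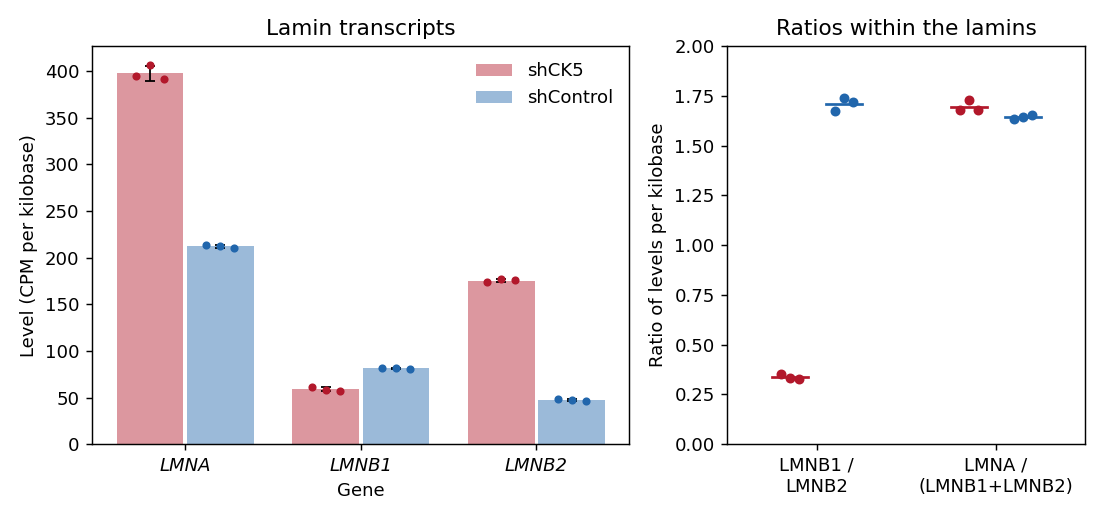
Lamin levels in CPM per kilobase of transcript (left; bars are means, error bars SD of 3 libraries, points libraries) and ratios of these levels (right; points libraries, lines means), with shCK5 left and red and shControl right and blue. LMNB1 over LMNB2 averaged 0.3372 in shCK5 and 1.709 in shControl, whereas LMNA over both B-type genes averaged 1.695 in shCK5 and 1.643 in shControl.

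The make-up of the family differed accordingly. Per kilobase of transcript, VIM made up 41.7% ± 0.0656 of the summed level of the 10 genes in shCK5 and 0.919% ± 0.0618 in shControl libraries. With the union of exons as length these shares were 32.7% and 0.634%. The lamins together held 56.8% to 57% in shCK5 and 96.7% to 96.9% in shControl libraries. Nearly all of the summed level of these 10 genes in shControl libraries was thus lamin RNA. INA, NEFH, NEFL and NEFM together held 0.0271% in shCK5 and 1.51% in shControl libraries. The level of all 10 genes summed was 1109.8 ± 14.7 CPM per kilobase in shCK5 and 352.3 ± 3.39 CPM per kilobase in shControl libraries, a 3.15-fold difference. VIM over the sum of KRT8 and KRT18, the keratin pair of simple epithelia, was 0.8162 ± 0.00745 in shCK5 and 0.002246 ± 0.000128 in shControl libraries (log2 difference 8.51, two-sided exact permutation p = 0.1). The keratins contributed to that ratio: KRT8 had 765 ± 10 CPM in shCK5 and 2169 ± 23.1 CPM in shControl libraries, and KRT18 had 322.7 ± 5.65 CPM in shCK5 and 656.3 ± 15.3 CPM in shControl. The annotated spans of KRT8 and KRT18 overlap on opposite strands, so part of their reads may be shared.

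**Figure D4:**
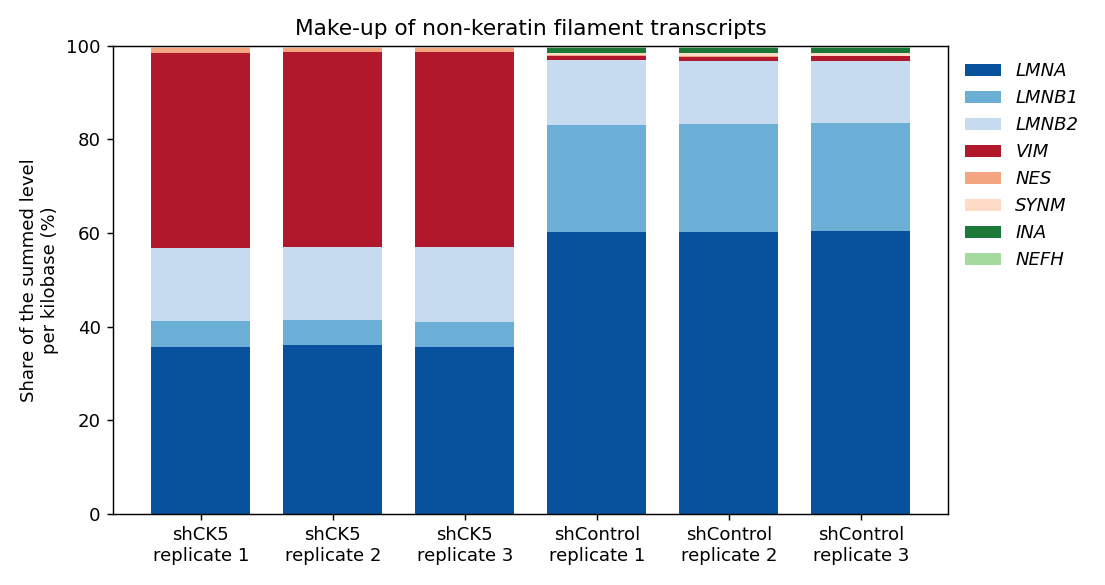
Share of each gene in the summed level per kilobase of the 10 genes, for each library, with shCK5 libraries left of shControl libraries. VIM fills 41.63% to 41.74% of the bar in shCK5 and 0.8755% to 0.9895% in shControl libraries, where the lamins fill nearly the whole bar; NEFL and NEFM are too small to draw.

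Markers of other cell types that make vimentin summed to far less than the VIM level in shCK5 libraries, but to about the VIM level of 6.911 CPM or more in shControl libraries. Their part in the VIM result was not tested. The summed level of 10 fibroblast markers was 12.28 to 14.41 CPM in shCK5 and 19.19 to 20.23 CPM in shControl libraries. Of the 3 tested, PDGFRB was higher in shCK5 and COL1A1 and FAP lower. POSTN and THY1 had no count in any library. DCN and PDGFRA had none in shCK5, against 2 and 29 counts in shControl libraries. Conversely, LUM had none in shControl, against 20 counts in shCK5 libraries. For 8 endothelial markers the sums were 6.085 to 7.205 CPM in shCK5 and 5.428 to 7.204 CPM in shControl libraries. Of the 6 tested, PECAM1 and KDR were higher and CDH5, TEK, VWF and ERG lower. For 8 leukocyte markers the sums were 32.3 to 35.99 CPM in shCK5 and 7.234 to 8.51 CPM in shControl libraries. LCP1, an actin-bundling protein gene, made up most of the leukocyte sum in shCK5, with 32.97 CPM against 1.571 CPM in shControl, whereas PTPRC and CD14 were lower in shCK5, ITGAM had 0.6071 CPM in shCK5 and 0.6601 CPM in shControl, and CD68 had no count in any library.

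The gene whose profile over the 6 libraries lay nearest to that of VIM was ANKRD1. The measure was the Euclidean distance of log2 CPM (prior count 2) centred on each gene's mean, which was 0.134 for ANKRD1. Its levels were 834.6, 801.4 and 810.1 CPM in shCK5 libraries and 6.094, 6.494 and 5.686 CPM in shControl libraries. The next were DCP1B, SNHG18 and 2 genes with clone-based names, at distances of 0.179 to 0.214. These 4 had no count in shControl libraries and were 262-fold to 294-fold higher in shCK5 at the least, against a floor of 3 counts over the shControl group. Their steps were thus larger than the 143-fold of VIM, and the prior count shrinks such steps in the distance.

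Other listed filament genes outside the keratins averaged at most 13.37 CPM in either group, the value of BFSP1 in shControl libraries. VIM averaged 6.911 CPM in shControl libraries. Of 8 listed, 5 were tested, with 4 higher and 1 lower in shCK5 (median log2 fold change 1.37, against -0.019 for all tested genes). For this and the lists that follow, counts of calls stand against 82.7% called, 40.9% higher and 41.7% lower among all tested genes, and no count is read as particular to a list. GFAP, the filament protein of astrocytes, had 2.062 ± 0.0822 CPM in shCK5 and 0.7953 ± 0.0675 CPM in shControl libraries. SYNC, which encodes the desmin-binding protein syncoilin, had 2.563 ± 0.164 CPM in shCK5 and 0.9433 ± 0.0982 CPM in shControl libraries, and IFFO1 had 1.2 ± 0.0835 CPM in shCK5 and 0.453 ± 0.201 CPM in shControl. BFSP1, a beaded filament gene of the lens, fell to 8.295 ± 0.579 CPM in shCK5, against 13.37 ± 0.916 CPM in shControl libraries (edgeR adjusted p of 5.98e-05 or less for these 4). DES, PRPH and BFSP2 were not tested; PRPH had no count, and DES and BFSP2 had at most 0.349 CPM in any library. With any 1 library left out, a second gene of this list, one not tested with all 6 libraries, counted as lower.

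Among 14 partners of the lamina, all tested, 10 rose and 4 fell (median log2 fold change 0.41), where 40.9% of all tested genes were higher and 41.7% lower. SYNE1, which encodes nesprin-1 of the link between nucleus and cytoskeleton, had 22.58 ± 1.76 CPM in shCK5 and 1.231 ± 0.276 CPM in shControl libraries (log2 fold change 4.20). SYNE3, whose product nesprin-3 ties the nucleus to intermediate filaments through plectin, had 31.2 ± 0.227 CPM in shCK5 and 10.12 ± 0.453 CPM in shControl libraries. LBR, the lamin B receptor gene, had 156 ± 0.942 CPM in shCK5 and 54.15 ± 1.26 CPM in shControl, and NRM, which encodes nurim of the inner nuclear membrane, had 56.4 ± 1.53 CPM in shCK5 and 24.32 ± 0.766 CPM in shControl. Genes listed for processing of the lamin tail, not all of them enzyme genes, were split, with 2 of 5 tested higher and 3 lower (median -0.55). ZMPSTE24, the protease that matures prelamin A, fell by 0.65 on the log2 scale (SE 0.0305), RCE1 and the farnesyltransferase subunit gene FNTA each fell by 0.55 (SE 0.0443 and 0.0476), and ICMT, a methyltransferase gene, rose by 0.36 (SE 0.0291). NARF was the other higher gene, by only 0.1 on the log2 scale (SE 0.0387). Scaling by library size or leaving out shControl replicate 3 left 1 higher gene in place of 2.

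Of 13 genes of kinases that phosphorylate filament proteins, with the activators CCNB1 and CDK5R1 counted among them, 9 rose, 3 fell and 1 missed the threshold (median log2 fold change 0.87), against 40.9% higher and 41.7% lower of all tested genes. PRKCA, a protein kinase C gene, had 276.7 ± 2.16 CPM in shCK5 and 16.77 ± 0.644 CPM in shControl libraries. CDK5R1, the activator of the neurofilament kinase CDK5, had 22.04 ± 0.966 CPM in shCK5 and 7.307 ± 0.192 CPM in shControl libraries, PAK2 had 311.4 ± 3.97 CPM in shCK5 and 109.9 ± 2.84 CPM in shControl, and AURKB, which phosphorylates vimentin in mitosis, had 131.9 ± 3.77 CPM in shCK5 and 50.86 ± 1.31 CPM in shControl. Of 6 turnover genes, 2 rose, 3 fell and 1 did not pass (median -0.19). The calpain genes parted, with CAPN1 at -0.82 (SE 0.0254) and CAPN2 at 0.59 (SE 0.0245), and CASP6, whose product cleaves lamin A in apoptosis, was at -0.28 (SE 0.0494).

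Linkers and chaperones of filaments moved both ways, with 7 of 14 higher, 6 lower and 1 not past the threshold (median log2 fold change 0.40). DST, which encodes a plakin linker, had 686.9 ± 23.2 CPM in shCK5 and 191 ± 3.56 CPM in shControl libraries. The small heat shock protein genes were lower: CRYAB had 0.6726 ± 0.116 CPM in shCK5 and 50 ± 3.2 CPM in shControl libraries, and HSPB1 had 251.9 ± 4.76 CPM in shCK5 and 1016.7 ± 47.7 CPM in shControl. DMD, the dystrophin gene, fell by 3.27 on the log2 scale (SE 0.099). Among transcription factors with reported action on VIM, NES or neurofilament genes, 14 of 16 were tested, with 7 higher, 3 lower and 4 that did not pass (median 0.22), against 82.7% called and 40.9% higher of all tested genes. The repressors ZEB1 and ZEB2 had 86.7 ± 0.79 and 17.1 ± 0.813 CPM in shCK5 libraries, against 0.6549 ± 0.128 and 0.02685 ± 0.0465 CPM in shControl libraries. All 6 ZEB2 counts in shControl came from replicate 1, so its log2 fold change of 9.24 became 13.34 without that library and 8.65 without replicate 2. SNAI2 averaged 10.66 ± 1.1 CPM in shCK5 and was at 0 in each shControl library, at least 803-fold higher against the floor of 3 counts over the group. FOSL1, an AP-1 subunit gene, had 758.8 ± 29.7 CPM in shCK5 and 29.27 ± 2.33 CPM in shControl libraries.

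**Figure D5:**
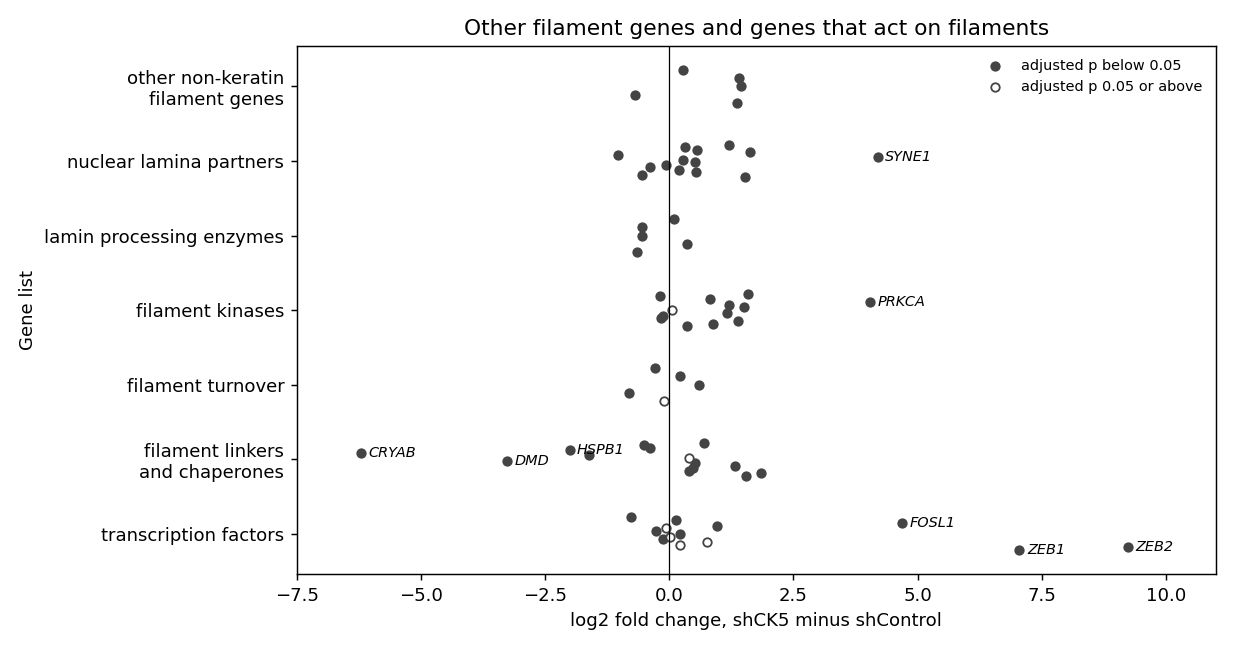
Log2 fold changes (shCK5 minus shControl) of tested genes in 7 lists, one row per list, with filled points for an edgeR adjusted p below 0.05 and open points otherwise; genes named by rule and past 2 log2 units carry their symbols. ZEB2 and ZEB1 lie at 9.24 and 7.05 and CRYAB at -6.21, whereas all lamina partners but SYNE1 lie between -1.04 and 1.62; SNAI2, with no count in shControl, and 1 turnover gene are not drawn.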

How the data were processed

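The authors deposited whole-number counts for each gene, which per the file headers were taken from sorted alignments and were not normalized. Tools named in the submitters' processing notes are STAR, cutadapt, Cufflinks and SAMtools (no versions), with build GRCh38. Not given in the sources used here are the counting program, its annotation, its use of strand and how multi-mapping reads were treated. Groups and replicate numbers came from sample titles. No label states separate cultures for the replicates; p-values then reflect the spread of these libraries, which may be technical. No batch is named. Between 63.08% and 65% of counts above 20 were even. Whether both mates of a fragment were counted is not stated, and if they were, the counting errors given here are too small.

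Counts were fitted once over the whole table with edgeR 4.0.16 in R 4.3.3 (filterByExpr, TMM, glmQLFit and glmQLFTest, no covariate), which tested 19567 genes. Fold changes are shCK5 minus shControl, and the SE is the log2 fold change over the root of the F statistic. Levels per kilobase use the longest CCDS transcript in GENCODE v29, a choice made after the annotation was read; ranks cover the 13646 tested genes with one. Ratios were compared by exact permutation over libraries. The scripts were tested on simulated counts in which far fewer genes differed. Differences as common as those here were not simulated. The members and lists were chosen with earlier results of these data known. Named were all members, up to 4 genes per list with the largest fold among those past the threshold with at least 1 CPM, overlapping genes, and the 5 genes nearest to VIM; NARF, CCNB1 and single markers were named after their values were seen, and 2 listed genes are not reported here. Alternatives covered scaling, filter, tool (DESeq2 1.42.0), length and left-out libraries.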

Additional observations from a re-analysis of the deposited data

How the results depend on the processing

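All 96 log2 fold changes of the 8 tested members under 12 alternatives kept their direction and their side of the adjusted p threshold. So did all 480 values of 40 other genes, those named by rule or as checks. NARF, CCNB1 and the cell type markers other than KRT8 and KRT18 were not among these 40. Scaling by library size alone moved the median log2 fold change of all tested genes to -0.156 from -0.019. Over all alternatives VIM ranged from 7.02 to 7.22, LMNA from 0.77 to 0.93 and LMNB1 from -0.60 to -0.43. Without 1 library, 7951 to 8058 genes were higher and 8073 to 8165 lower, and 5 and 3 members. Of 216 counts, 205 stayed within 1.5 times. With library size alone, 1 turnover gene and 1 lamin processing gene were higher and 5 transcription factors lower. Testing every gene with a count gave 2 lower genes among the other filament genes, as did each left-out library (2 to 2). Without 1 library, the lamin processing list had 1 to 2 higher genes. The difference in LMNA over B-type lamins was -0.21 with no length and 0.00 with the exon union. With these lengths the VIM share differed by 5.66 and 5.69 on the log2 scale and the neurofilament and INA share by -5.59 and -5.61, since the length sets each gene's weight in the sum. The coding length from RefSeq proteins was not run. Halved counts and the exon union were chosen after seeing the data. Same-numbered libraries shared only a number: their deviations correlated at -0.006, 0.008 and -0.003. Every library correlated better with a library of another number. With the replicate number as a block, 7918 genes were higher and 8008 lower, and the same 5 and 3 members. Low counts of INA and NEFH in shCK5 limit the precision of their folds.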
